A study of Mus musculus with 8 samples.

Results

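The genes described here are 7 mouse Toll-like receptor genes (Tlr1, Tlr2, Tlr4, Tlr6, Tlr7, Tlr9 and Tlr13), the co-receptor gene Cd14 and the adaptor gene Myd88. They were chosen by name, from the rows of the count table whose Ensembl identifiers map to these symbols. All 9 had a row among the 15917 genes of the table, and all 9 passed the filter on low counts. The study sequenced mRNA from eosinophils, granule-bearing leukocytes of type 2 immunity, which had been purified from mouse blood and cultured for 18 h in 4 groups of 2 libraries. In the first experiment, cells received IFN-γ and TNF-α at 15 ng/mL (E1) or no cytokine (CN). In the second experiment, cells received IL-5, GM-CSF and IL-4 at 10 ng/mL each with IL-33 at 30 ng/mL (E2), or IL-5 alone at 10 ng/mL (E0). All 4 groups came from C57BL/6 blood of IL-5 transgenic animals (line NJ.1638) according to the protocol, whereas the genotype label reads WT. These animals make IL-5 from a T cell promoter, also in the CN group, to which none was added in culture. The cells were enriched by removing others with CD90 and B220 beads, and B220 is carried by B cells and by mouse plasmacytoid dendritic cells. Neither the ages of the animals nor whether the 2 replicates of a group were separate animals or cultures is stated, so p-values measure the spread between these libraries.

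Toll-like receptors are membrane sensors of microbial molecules. TLR2 pairs with TLR1 or TLR6 at the cell surface to bind bacterial lipopeptides, and TLR4, with its partner MD-2, binds lipopolysaccharide that CD14 hands over. TLR7, TLR9 and TLR13 sit in endosomes and bind single-stranded RNA, unmethylated CpG DNA and bacterial ribosomal RNA, and TLR13 is present in mice but not in humans. MYD88 is the cytosolic adaptor that couples these receptors, and also the receptors for IL-1, IL-18 and IL-33, to the IRAK kinases and NF-κB. Eosinophils are known to carry several of these receptors, and ligands of them prolong eosinophil survival or cause mediator release in culture.

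The receptors divided by culture. A gene was called where its edgeR p, adjusted over all genes tested, was below 0.05. Of the 9 genes, Cd14 had the largest change with IFN-γ and TNF-α, at 5.42-fold the CN level, and Tlr6 and Tlr1 were also higher in E1 than in CN. Tlr9 had the largest change with GM-CSF, IL-4 and IL-33 added to IL-5, at 9.54-fold the E0 level, while Tlr7, Tlr1, Tlr6 and Tlr13 were lower in E2 than in E0. Tlr1 and Tlr6 were thus called in opposite directions in the 2 comparisons, although both Tlr1 calls were lost when some single libraries were left out. The difference between the responses was itself called for 6 of the 9 genes, against 25.2% of all genes tested. Tlr4 passed the test in neither within-experiment comparison in this fit, which takes no account of replicate number.

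**Figure D1:**
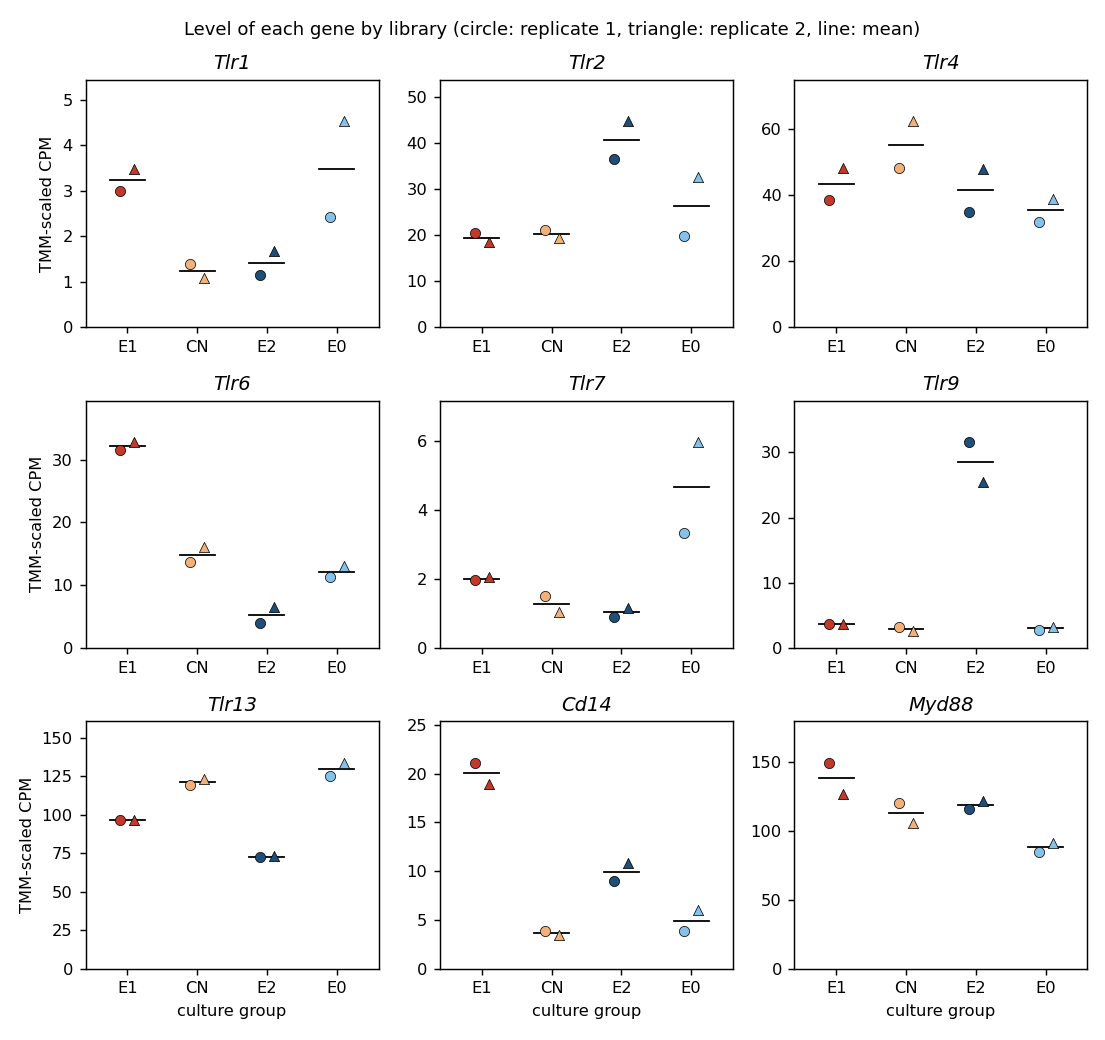
Level of each of the 9 genes in every library, in CPM, a gene's share of its library's counts scaled by the TMM method, with E1 and CN from the first experiment and E2 and E0 from the second. Circles are replicate 1, triangles are replicate 2 and lines are group means (n = 2). Tlr9 stands at 31.6 and 25.5 CPM in E2 and below 4 CPM in the other 6 libraries, and Cd14 is highest in the E1 libraries.

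The 8 libraries held between 60809057 and 95065752 counts each, and a gene with 0 counts could have stood at up to 0.0316 to 0.0493 CPM (3 counts in that library, counting error only). The least abundant gene of the 9 in any library was Tlr7, with 77 counts in replicate 1 of E2. Eosinophil markers were present throughout, with all 10 listed genes in the table and summed levels of 5584 to 6381 CPM in E1, 7168 to 7397 in CN, 4135 to 4176 in E2 and 6551 to 6643 in E0. Of these 10, 8 were called lower and 1 higher in E2 versus E0, against 18.5% and 17.0% of all genes. In E1 versus CN, 2 were called lower and 0 higher, against 8.08% and 9.19% of all genes. Markers of other leukocytes that carry Toll-like receptors differed between the groups. The monocyte, macrophage and dendritic cell markers (15 of 16 in the table) summed to 5209 to 5533 CPM in E1, 925 to 1041 in CN, 1663 to 1736 in E2 and 1024 to 1062 in E0, and the E1 sum was mostly Ly6c2 at 4214 and 3784 CPM. Neutrophil markers (12 of 13) summed to 1639 to 2142 CPM in E1, 3077 to 3545 in CN, 1114 to 1538 in E2 and 3128 to 3893 in E0, and B cell markers (8 of 8) to 223 to 262 CPM in E1, 243 to 251 in CN, 148 to 182 in E2 and 264 to 276 in E0. In every group replicate 2 and not replicate 1 expressed Xist, so the 2 libraries of a group came from different animals and the spread between them includes sex. In these bulk libraries, a change in the number of cells of a type and a change in RNA per cell cannot be told apart, and the part of other cells in the results was not tested except where a value is given below.

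Of the 9 genes, Tlr4 and Tlr7 had no promoter in the RefSeq-based table (GRCm38.p6), and Cd14 was left out of this search. Promoter sequences of the other 6 were taken as 8 windows that run from 250 bases before a transcription start to 50 bases after it. Each was searched on both strands for letters bound by factors downstream of these cytokines: the interferon-γ-activated element (TTC and GAA with 3 bases of any kind between them), the STAT6 type (TTC and GAA with 4 bases between), the interferon-stimulated response element (GAAA and GAAA with 2 bases between) and the κB type (GGG and TTTCC with 2 bases between). Matches may overlap. These occurred in 8.30%, 6.95%, 3.44% and 1.63% of 32851 promoters. The 3 windows below are shown because Tlr6 was called in opposite directions, Tlr9 had the largest change with the second stimulus and Myd88 serves all of these receptors. Capitals mark motif matches, and each sequence is on the gene's strand, 5′ to 3′.

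Tlr6, chr5:64959167-64959416, minus strand: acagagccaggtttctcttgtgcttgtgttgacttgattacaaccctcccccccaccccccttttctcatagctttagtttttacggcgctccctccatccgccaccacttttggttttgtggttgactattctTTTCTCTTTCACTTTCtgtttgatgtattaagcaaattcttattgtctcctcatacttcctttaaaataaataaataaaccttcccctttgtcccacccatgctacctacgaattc

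Myd88, chr9:119340042-119340268, minus strand: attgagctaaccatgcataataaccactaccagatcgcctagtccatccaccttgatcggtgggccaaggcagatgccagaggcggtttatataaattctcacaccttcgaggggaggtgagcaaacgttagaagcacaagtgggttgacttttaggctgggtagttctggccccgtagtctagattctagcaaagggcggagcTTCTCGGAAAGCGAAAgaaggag

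Tlr9, chr9:106222348-106222597, plus strand: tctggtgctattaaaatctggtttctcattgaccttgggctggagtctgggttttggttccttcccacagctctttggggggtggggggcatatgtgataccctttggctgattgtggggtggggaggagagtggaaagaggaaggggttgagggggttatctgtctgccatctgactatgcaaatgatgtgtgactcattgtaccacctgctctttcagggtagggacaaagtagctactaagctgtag

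In the Tlr6 window, 2 overlapping matches to the interferon-stimulated response element, read on the opposite strand, began at -116 and -110 from the RefSeq start. This start is an alternative one, and in GENCODE M21 (mm10) the 250 bases shown lie in an intron of Tlr6, a gene at chr5:64952031-64960097. In the Myd88 window, an interferon-γ-activated element at -46 overlapped an interferon-stimulated response element at -40. The Myd88 bases lie within the span of the gene (chr9:119335934-119341411), upstream of the exon of its shorter transcript, and 23 exonic bases next to the start were left out. The Tlr9 window, next to the gene at chr9:106222598-106226883, had no match to any of the 4 motifs, nor had those of Tlr2 and Tlr13. In the other Tlr6 window, 2 interferon-γ-activated elements began at -3 and 8, and in 1 of the 2 Tlr1 windows such an element began at -228. These matches are letters in a window, not sites of binding.

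Of the lipopeptide receptors, Tlr6 had the widest span between groups. It had 31.4 and 32.8 CPM in the E1 libraries, against 13.7 and 16.0 CPM in the CN libraries. It had 3.93 and 6.58 CPM in E2, against 11.3 and 13.0 CPM in E0. No 2 groups overlapped, and the order of means was E1, CN, E0, E2 with a 6.11-fold span. Tlr6 was 2.16-fold higher in E1 than in CN (log2 fold change 1.11 ± 0.21 (SE), adjusted p = 0.00677) and stood at 0.432 of the E0 level in E2 (log2 fold change -1.21 ± 0.21, adjusted p = 0.00329). The difference of the 2 responses, (E2 minus E0) minus (E1 minus CN), was -2.32 ± 0.30 on the log2 scale (adjusted p = 0.000922).

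Tlr1, the other partner of Tlr2, lies next to Tlr6 at chr5:64924679-64933563 on the minus strand. It had 2.99 and 3.48 CPM in E1, against 1.39 and 1.08 CPM in CN. It had 1.15 and 1.67 CPM in E2, against 2.41 and 4.54 CPM in E0. Neither comparison had overlapping libraries, and E0 and E1 overlapped each other at the upper end, as did E2 and CN at the lower end. Tlr1 was 2.61-fold higher in E1 than in CN (log2 fold change 1.38 ± 0.33, adjusted p = 0.0227), but the call was lost without any 1 of the 4 libraries of that comparison (adjusted p between 0.0503 and 0.111). It stood at 0.404 of the E0 level in E2 (log2 fold change -1.31 ± 0.33, adjusted p = 0.0162), and the log2 fold change was -0.78 without E0 replicate 2 (adjusted p = 0.106) and -1.06 without E2 replicate 1 (adjusted p = 0.11). The difference of responses was -2.69 ± 0.47 (adjusted p = 0.0041) and was called under all 15 alternatives tried. The transcripts of Tlr1 and Tlr6 share 340 stretches of 75 bases, 10.3% of those in Tlr1 and 9.25% of those in Tlr6, so that some reads could belong to either gene.

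Tlr2, which both of these receptors need, is at chr3:83836272-83841767 on the minus strand. It had 20.4 and 18.5 CPM in E1, against 21.2 and 19.4 CPM in CN. It had 36.6 and 44.8 CPM in E2, against 19.8 and 32.6 CPM in E0. The E1 and CN libraries overlapped, and the log2 fold change was -0.06 ± 0.21 (adjusted p = 0.89). Both E2 libraries lay above both E0 libraries, although the E0 libraries were farther apart than those of any other group. Tlr2 was 1.55-fold higher in E2 than in E0 (log2 fold change 0.63 ± 0.21), with an adjusted p of 0.0485. The call was lost with library totals alone, with only the libraries of that comparison in the fit, and without any 1 library other than E0 replicate 2 (adjusted p from 0.0552 to 0.239). The log2 fold change was 0.32 without E0 replicate 1 (adjusted p = 0.193) and 1.04 without E0 replicate 2. The difference of responses did not pass the test (0.69 ± 0.30, adjusted p = 0.132), and it was 1.10 without E0 replicate 2. With a term for replicate number in the edgeR fit it was called (0.72, adjusted p = 0.00191). Whether the E2 and E1 responses of Tlr2 differ thus depended on the libraries and the fit used.

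**Figure D2:**
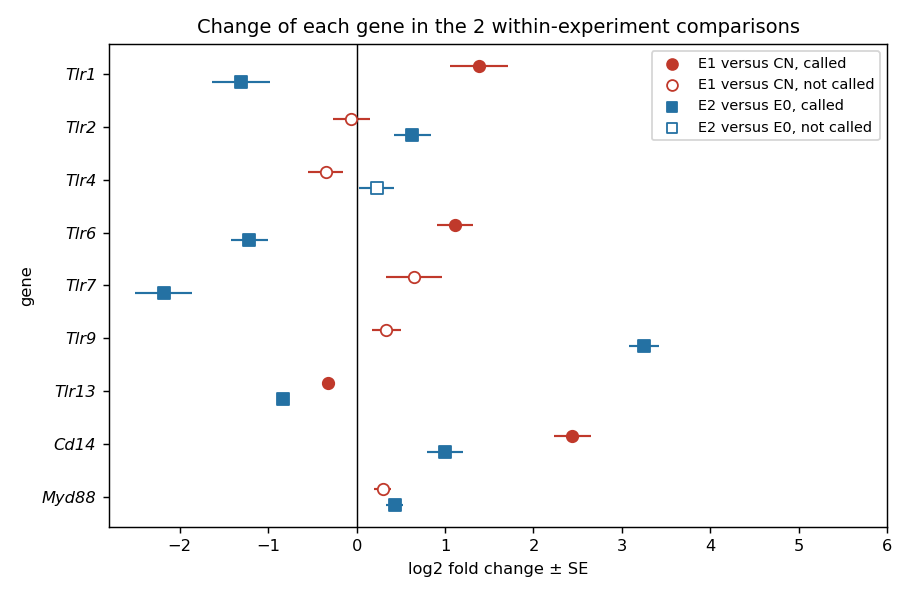
Log2 fold change of each gene in E1 versus CN (red circles) and in E2 versus E0 (blue squares), with bars of 1 SE from edgeR and filled symbols for genes called at an adjusted p below 0.05. Tlr1 and Tlr6 lie right of 0 in E1 versus CN and left of 0 in E2 versus E0, while Cd14 lies right of 0 in both.

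Of the genes of lipopolysaccharide recognition, Cd14 was called in both comparisons and Tlr4 in neither in the main fit, which takes no account of replicate number. Cd14, a surface protein on chromosome 18 with no signalling domain of its own, had 21.1 and 18.9 CPM in E1, against 3.90 and 3.48 CPM in CN. It had 8.95 and 10.9 CPM in E2, against 3.89 and 5.98 CPM in E0. The groups of each pair did not overlap, and E0 and CN overlapped each other. Cd14 was 5.42-fold higher in E1 than in CN (log2 fold change 2.44 ± 0.21, adjusted p = 0.000104) and 2.00-fold higher in E2 than in E0 (log2 fold change 1.00 ± 0.20, adjusted p = 0.0063). Both calls held in all 16 alternatives, in which the log2 fold change ran from 2.35 to 2.54 for E1 versus CN and from 0.73 to 1.35 for E2 versus E0. The E1 response was the larger one, with a difference of responses of -1.44 ± 0.29 (adjusted p = 0.00756). Monocytes are known for high levels of Cd14, and the monocyte, macrophage and dendritic cell sum given above was highest in E1. That sum was mostly Ly6c2 in E1, at 4214 and 3784 CPM, against 92.8 and 105 CPM in CN, so the rank of E1 rested on that gene. Of the 15 genes of that list tested, 6 were called higher in E1 versus CN and 4 lower, against 9.19% and 8.08% of all genes. Csf1r, the receptor of macrophage colony-stimulating factor, had 722 and 816 CPM in E1, against 457 and 401 CPM in CN, and Mertk, a receptor for uptake of dying cells, had 2.46 and 4.65 CPM in E1, against 0.379 and 0.132 CPM in CN. In the other direction, Cx3cr1 had 0.956 and 1.58 CPM in E1, against 4.66 and 3.41 CPM in CN, and Ccr2, another chemokine receptor of monocytes, had 16.1 and 16.6 CPM in E1, against 37.5 and 23.8 CPM in CN. The part of such cells in the Cd14 values was not tested.

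Tlr4, the signalling receptor at chr4:66827584-66930284, had 38.6 and 48.3 CPM in E1, against 48.1 and 62.4 CPM in CN. It had 34.7 and 48.0 CPM in E2, against 31.8 and 38.8 CPM in E0. In every group replicate 2 was above replicate 1, and the libraries overlapped in both comparisons. Between libraries of the same replicate number, E1 was below CN in both pairs and E2 above E0 in both pairs. The log2 fold change was -0.35 ± 0.20 in E1 versus CN (adjusted p = 0.287) and 0.23 ± 0.20 in E2 versus E0 (adjusted p = 0.406), and the sign of the second one changed without E2 replicate 2. With a term for replicate number in the edgeR fit, Tlr4 was called in both (-0.34, adjusted p = 0.00157, and 0.22, adjusted p = 0.013). Ly96, which encodes MD-2, averaged 1.75 ± 0.06 CPM in E1 and 1.68 ± 0.24 CPM in CN (SD, n = 2 each; adjusted p = 0.89), and 2.35 ± 0.03 CPM in E2 and 4.31 ± 0.70 CPM in E0 (log2 fold change -0.88 ± 0.19, adjusted p = 0.00881). Of these 3 genes Cd14 was called in E1 versus CN in the main fit and the other 2 were not, and the difference between genes was not tested.

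Among the endosomal receptors, Tlr9 had 31.6 and 25.5 CPM in E2, against 2.74 and 3.23 CPM in E0. It had 3.64 and 3.65 CPM in E1, against 3.18 and 2.58 CPM in CN. The E2 libraries held 2696 and 1980 counts of Tlr9, and none of the other 6 libraries held more than 305. The log2 fold change was 3.25 ± 0.17 in E2 versus E0 (adjusted p = 8.96e-06) and 0.34 ± 0.16 in E1 versus CN (adjusted p = 0.214). The difference of responses was 2.92 ± 0.23 (adjusted p = 7.36e-05), which is 7.55-fold. Tlr9 is known for high expression in B cells and plasmacytoid dendritic cells. The B cell sum given above was lower in E2 than in E0, and was mostly Ighm, the immunoglobulin mu heavy chain, at 124 and 97.4 CPM in E2, against 239 and 229 CPM in E0. Of the 8 markers in that sum, however, 3 were called higher and 1 lower in E2 versus E0, against 17.0% and 18.5% of all genes. Ms4a1, which encodes the B cell surface protein CD20, had 8.22 and 6.24 CPM in E2, against 3.38 and 3.54 CPM in E0. Cd22, another marker of that list, had 16.8 and 15.3 CPM in E2, against 2.33 and 2.63 CPM in E0. Both were named after their values were seen, and both were higher in E2 as Tlr9 was. The part of B cells in the Tlr9 result was not tested. Siglech, a defining gene of mouse plasmacytoid dendritic cells, was below 1 CPM in every library. The 6 markers of these cells summed to 24.6 to 26.3 CPM in E2 and 22.2 to 26.4 CPM in E0. This sum was mostly Bst2, at 16.1 and 18.7 CPM in E2, against 14.1 and 15.7 CPM in E0.

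Tlr7, at chrX:167304929-167330558 on the minus strand, had 0.903 and 1.16 CPM in E2, against 3.33 and 5.98 CPM in E0. It had 1.96 and 2.04 CPM in E1, against 1.51 and 1.03 CPM in CN. The E0 libraries were the highest of all 8 and the order of means was E0, E1, CN, E2, in which only CN and E2 overlapped. Tlr7 stood at 0.221 of the E0 level in E2 (log2 fold change -2.18 ± 0.32, adjusted p = 0.00143). In E1 versus CN the libraries did not overlap, but the log2 fold change of 0.65 ± 0.32 did not pass the test (adjusted p = 0.216). Tlr7 was called there with a term for replicate number in the edgeR fit (0.67, adjusted p = 0.0442). The difference of responses was -2.83 ± 0.45 (adjusted p = 0.0027).

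Tlr13, at chrX:106143204-106160493, had the smallest SE of the 9 genes. It had 96.4 and 96.6 CPM in E1, against 119 and 123 CPM in CN. It had 72.5 and 73.0 CPM in E2, against 125 and 134 CPM in E0. No 2 groups overlapped, and the order of means was E0, CN, E1, E2. Tlr13 was the only gene of the 9 called lower in both comparisons, at 0.797 of the CN level in E1 (log2 fold change -0.33 ± 0.06, adjusted p = 0.00528) and 0.562 of the E0 level in E2 (log2 fold change -0.83 ± 0.06, adjusted p = 3.31e-05). The second fall was the larger (difference of responses -0.51 ± 0.08, adjusted p = 0.00291).

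Myd88 had 149 and 127 CPM in E1, against 120 and 106 CPM in CN. It had 116 and 122 CPM in E2, against 84.6 and 91.6 CPM in E0. Neither comparison had overlapping libraries. Myd88 was 1.35-fold higher in E2 than in E0 (log2 fold change 0.43 ± 0.10, adjusted p = 0.00952), a call lost without E0 replicate 1 (0.38, adjusted p = 0.0657) or without E2 replicate 2 (0.40, adjusted p = 0.0667). In E1 versus CN its log2 fold change of 0.29 ± 0.10 did not pass the test (adjusted p = 0.0741), and the difference of responses was 0.14 ± 0.13 (adjusted p = 0.514). DESeq2 called the E1 versus CN change (adjusted p = 0.0388), as did edgeR with a term for replicate number in the fit (0.29, adjusted p = 0.0009). Leaving out replicate 1 of CN or replicate 2 of E1 moved it to 0.40 and 0.41. Of the exons of Myd88, 290 bases (11.3%) overlap those of Acaa1a, a peroxisomal thiolase gene on the opposite strand, and the strand setting of the counting is not given in the sources used here. Acaa1a was lower in E2 than in E0 (80.6 against 109 CPM, log2 fold change -0.44 ± 0.06, adjusted p = 0.00118), the direction opposite to that of Myd88. In E1 versus CN both had a positive log2 fold change that did not pass the test, that of Acaa1a being 0.15 ± 0.06 (165 against 149 CPM, adjusted p = 0.145).

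Of the 9 genes, 4 were called in E1 versus CN (3 higher, 1 lower), where 17.3% of all 15913 genes tested were called (9.19% higher, 8.08% lower). In E2 versus E0, 8 of the 9 were called (4 higher, 4 lower), where 35.5% of all genes were called (17.0% higher, 18.5% lower). For the difference of responses, 6 of the 9 were called (1 higher, 5 lower), against 25.2% of all genes (11.3% higher, 14.0% lower). Libraries did not overlap for 7 of the 9 genes in E1 versus CN and 8 of the 9 in E2 versus E0, shares to be read beside 54.1% and 73.1% of all genes. The median log2 fold change of the 9 genes was 0.34 in E1 versus CN and 0.23 in E2 versus E0, and that of all genes was -0.01 and -0.02. With library totals alone in place of TMM scaling, 38.6% of all calls in E1 versus CN were higher, against 53.2% with TMM scaling, and the same 3 higher and 1 lower counts were obtained for the 9 genes.

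Levels set across the 2 experiments are given as a description, since group and experiment cannot be told apart. In E2 versus E1, 7 of the 9 genes were called, 2 higher and 5 lower, where 53.9% of all genes were called (27.3% higher, 26.6% lower), and libraries did not overlap for 8 of the 9, against 77.8% of all genes. With library totals alone, 63.6% of all calls in this comparison were higher, against 50.6% with TMM scaling, and the median of all genes moved to 0.16, against 0.02. Tlr2 and Tlr9 were higher in E2 (log2 fold changes 1.06 ± 0.21 and 2.97 ± 0.17), and Tlr1, Tlr6, Tlr7, Tlr13 and Cd14 were lower, with Tlr6 the farthest at -2.61 ± 0.22. The call of Tlr7 was lost without any 1 of the 4 libraries compared, with library totals alone and with limma-voom (adjusted p from 0.0651 to 0.172), and that of Tlr1 without E1 replicate 2 or E2 replicate 1 (adjusted p = 0.0577 and 0.104). Tlr13 was at -0.41 ± 0.06, and at -0.27 with library totals alone. In E0 versus CN, 4 of the 9 were called, 2 higher and 2 lower, where 25.4% of all genes were called (13.5% higher, 11.9% lower), and libraries did not overlap for 6 of the 9, against 65.7% of all genes. Tlr7 and Tlr1 were higher in E0 (1.87 ± 0.32 and 1.49 ± 0.33), and Tlr4 and Myd88 were lower (-0.64 ± 0.20 and -0.36 ± 0.10). The last 2 calls were lost with library totals alone (adjusted p = 0.0727 for Tlr4 and 0.0622 for Myd88) and without either E0 library. Tlr4 was also lost with the filter of at least 1 CPM in 2 libraries (adjusted p = 0.0521) and without CN replicate 2, and Myd88 also without CN replicate 1 or either E2 library. Tlr1 was no longer called without E0 replicate 2 (0.96, adjusted p = 0.0827) or without CN replicate 2 (1.33, adjusted p = 0.0789).

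Levels of different genes were compared per kilobase of exon, as TMM-scaled CPM divided by exon length. Averaged over the 8 libraries, Myd88 was the highest at 44.4 ± 7.98 and Tlr13 came next at 24.4 ± 5.55 (SD over libraries). Tlr2 (8.84 ± 3.31), Tlr4 (7.89 ± 1.77), Cd14 (5.57 ± 4.01) and Tlr6 (4.32 ± 2.86) followed, and their ranges over libraries overlapped. Tlr9 averaged 2.74 ± 3.41, Tlr1 0.699 ± 0.373 and Tlr7 0.549 ± 0.417. With the longest transcript in place of all exons, Tlr4 (10.8) came before Tlr2 (8.84), and the other places stayed as they were. The order of means per kilobase of all exons also differed by culture. Cd14 at 11.6 ± 0.891 was above Tlr2 (6.45 ± 0.431) and Tlr4 (7.82 ± 1.24) in E1 and below both in the other 3 groups (SD, n = 2). In E2, however, the libraries of Cd14 (5.17 and 6.27) and Tlr4 (6.25 and 8.64) overlapped. Tlr9 at 8.21 ± 1.25 in E2 was close to Tlr4 there (7.44 ± 1.69), and their libraries overlapped.

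**Figure D3:**
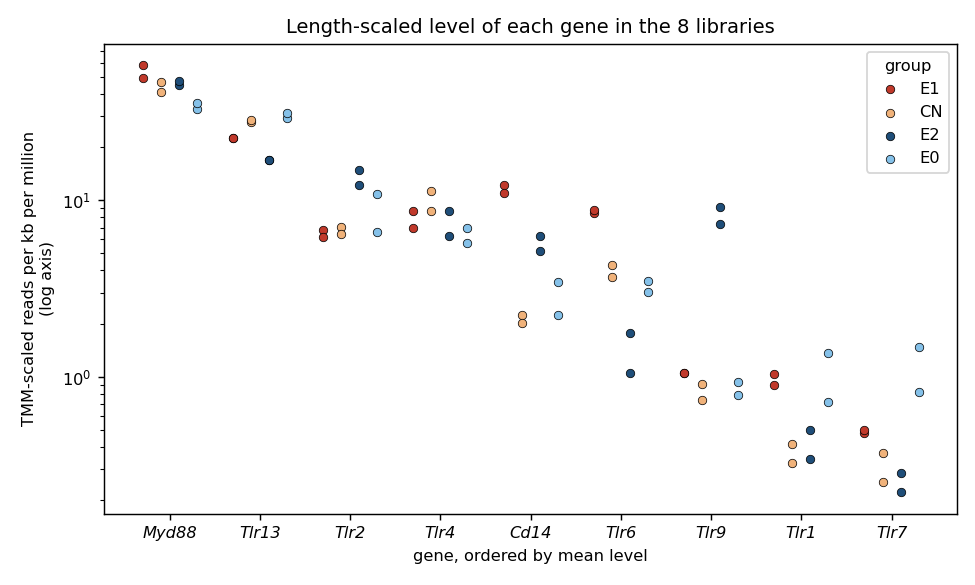
Level of the 9 genes per kilobase of exon in each library, on a log axis, coloured by culture group and ordered by the mean over the 8 libraries. Myd88 and Tlr13 hold the first 2 places, and Tlr9 in E2 and Cd14 in E1 lie above the other libraries of their gene.

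Other Toll-like receptors were a further list of 5 genes, of which 4 were in the table. Tlr5, the receptor for flagellin, had 2 and 13 counts in E1, against 433 and 358 counts in CN, and 15 and 30 counts in E2, against 163 and 373 counts in E0. It was lower in both comparisons (log2 fold changes -5.50 ± 0.63 and -3.66 ± 0.54, adjusted p = 0.000497 and 0.0014). Tlr8, an endosomal receptor next to Tlr7 on the X chromosome, had 0.334 and 0.736 CPM in E1, against 4.65 and 3.44 CPM in CN, and 2.04 and 3.05 CPM in E2, against 6.24 and 9.46 CPM in E0. It too was lower in both (-2.93 ± 0.40 and -1.63 ± 0.36, adjusted p = 0.00142 and 0.00922), whereas its neighbour Tlr7 was called only in E2 versus E0. Tlr3, the receptor for double-stranded RNA, was at or below 0.531 CPM in every library, and Tlr12, a mouse receptor for a protozoan profilin, averaged 2.43 ± 0.485 CPM in E1, 1.42 ± 0.663 in CN, 1.15 ± 0.0556 in E2 and 1.38 ± 0.240 in E0. Neither was called in either comparison by edgeR. For the difference of responses edgeR called none of the 4 (1 at an unadjusted p below 0.05, and 2 called by DESeq2).

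Tlr1, Tlr7 and Tlr8 shared a pattern with some macrophage markers, and not with others, in the second experiment. Cx3cr1, a chemokine receptor of monocytes and macrophages, had 0.352 and 0.772 CPM in E2, against 10.8 and 16.1 CPM in E0. Mrc1, the macrophage mannose receptor, had 1.07 and 0.553 CPM in E2, against 4.41 and 7.40 CPM in E0. These markers, named after their values were seen, were highest in the E0 libraries and higher in replicate 2 of E0 than in replicate 1, as Tlr7 and Tlr8 were. Tlr1 was highest in replicate 2 of E0, but its level in replicate 1 of E0 lay below both E1 libraries. Other markers went the opposite way, among them the more abundant Csf1r, with 817 and 772 CPM in E2, against 400 and 434 CPM in E0. Adgre4 had 847 and 819 CPM in E2, against 505 and 487 CPM in E0. Of the 15 monocyte, macrophage and dendritic cell markers tested, 6 were called higher and 8 lower in E2 versus E0, against 17.0% and 18.5% of all genes. In E1 versus CN, 6 were called higher and 4 lower, against 9.19% and 8.08% of all genes. Some neutrophil markers, also named after their values were seen, were highest in replicate 2 of E0. S100a8 had 378 and 615 CPM in E0, and Mmp8 had 85.4 and 134 CPM. Others were not, among them Csf3r, with 201 and 355 CPM in E0, against 432 and 400 CPM in CN. Of 12 neutrophil markers tested, 0 were called higher and 6 lower in E2 versus E0. In E1 versus CN, 1 was higher and 7 were lower. The part of these cell types in the results for Tlr1, Tlr7 and Tlr8 was not tested.

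**Figure D4:**
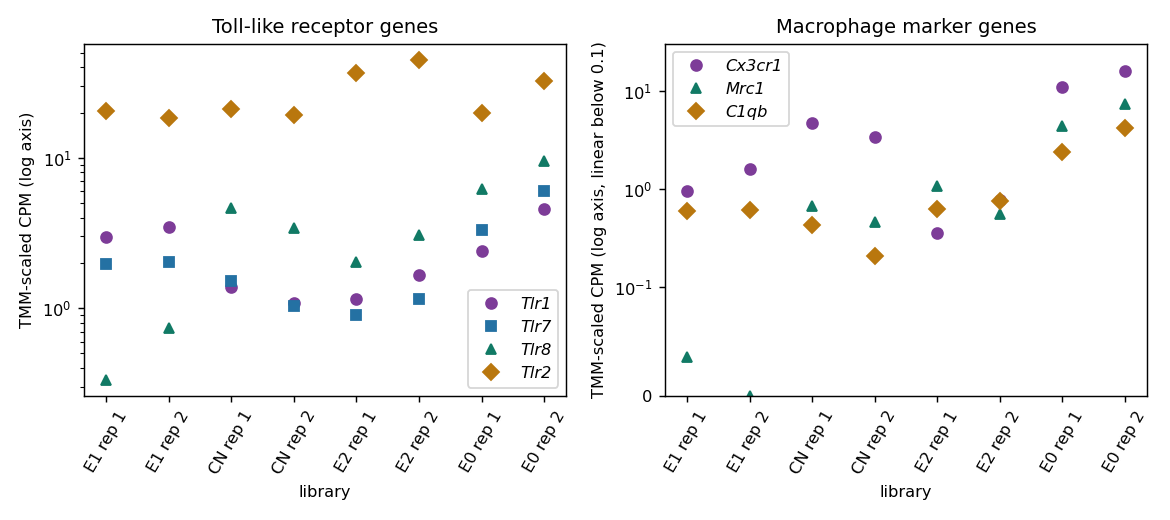
Left, Tlr1, Tlr2, Tlr7 and Tlr8 in each library, and right, the macrophage markers Cx3cr1, Mrc1 and C1qb, in TMM-scaled CPM on log axes. Tlr1, Tlr7, Tlr8 and the 3 markers are all highest in replicate 2 of E0, whereas Tlr2 is highest in the E2 libraries. The 3 markers were chosen after their values were seen, and other markers of their list were higher in E2 than in E0.

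The rest of the pathway was followed in lists taken from common knowledge of Toll-like receptor signalling. The shares of all genes called by edgeR, 9.19% higher and 8.08% lower in E1 versus CN and 17.0% higher and 18.5% lower in E2 versus E0, stand as background for each list. Of 13 accessory and trafficking genes, edgeR called only Unc93b1 in E1 versus CN, where DESeq2 called 3 higher and 1 lower. Unc93b1, which carries the endosomal receptors out of the endoplasmic reticulum, averaged 293 ± 24.0 CPM in E1 and 85.2 ± 5.00 CPM in CN (SD, n = 2 each; log2 fold change 1.78 ± 0.11, adjusted p = 1.55e-05). In E2 versus E0, 1 of the 13 was higher, a share below that of all genes, and 6 were lower. The higher one was Hsp90b1, the chaperone that folds most Toll-like receptors (log2 fold change 0.70 ± 0.07), and the lower ones included Lgmn, a protease that cuts endosomal receptors (-1.54 ± 0.17), Cd180, a receptor related to TLR4 (-1.33 ± 0.22), and Cd36, a scavenger receptor that works with TLR2 and TLR6 (which fell by 1.00 ± 0.31). The median of the list was 0.06 in E1 versus CN and -0.60 in E2 versus E0.

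Of 4 other adaptors, none was called in E1 versus CN by edgeR, DESeq2 or limma-voom (1 had an unadjusted p below 0.05 with each), and 3 were called higher in E2 versus E0. These were Pik3ap1, which links the receptors to PI3 kinase (254 ± 11.2 CPM in E2 and 70.0 ± 2.76 CPM in E0, log2 fold change 1.86 ± 0.10), Ticam2 (1.09 ± 0.20) and Ticam1 (0.30 ± 0.08), the MYD88-independent adaptors of TLR4 and TLR3. Of 19 kinases and ubiquitin ligases, 6 were higher in E1 versus CN and the other 13 were not called, and 5 were higher and 2 lower in E2 versus E0, the lower share being below that of all genes. Ikbke, a kinase of interferon regulatory factors, was called in both (66.4 ± 9.86 CPM in E1 and 3.85 ± 0.827 CPM in CN, and 147 ± 7.47 CPM in E2 and 8.44 ± 1.23 CPM in E0). Map3k8, a kinase that activates the ERK pathway, rose more with the second stimulus (difference of responses 2.64 ± 0.23, adjusted p = 0.000127). Of the genes that relay the signal of MYD88, Irak2 was higher in both comparisons (0.45 ± 0.08 and 0.47 ± 0.08), and Irak4 and Traf6 were called in neither (log2 fold changes from -0.14 to 0.15).

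Of 12 inhibitors, 7 were called higher in E1 versus CN and the other 5 were not called by edgeR (DESeq2 called 1 of them lower), and 5 were higher and 3 lower in E2 versus E0. Irak3, which blocks release of the active IRAK kinases, averaged 492 ± 15.1 CPM in E2 and 45.1 ± 0.138 CPM in E0 (log2 fold change 3.45 ± 0.09, adjusted p = 5.1e-07), with a difference of responses of 2.63 ± 0.11. Trafd1 was higher in E1 than in CN (347 ± 49.5 and 54.3 ± 3.75 CPM), with a difference of responses of -2.40 ± 0.16. Nfkbia, the inhibitor of NF-κB that NF-κB itself induces, was higher in both comparisons (2.86 ± 0.10 and 3.34 ± 0.10). Of 10 transcription factor genes, 8 were higher in each comparison. Irf1, Irf7 and Irf8 led in E1 versus CN (4.23 ± 0.10, 4.05 ± 0.16 and 2.45 ± 0.21) and all 3 had smaller responses in E2 versus E0 (differences of responses -3.82 ± 0.13, -3.38 ± 0.21 and -1.72 ± 0.29), where Nfkb2 and Relb led (2.23 ± 0.06 and 2.23 ± 0.10).

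Of 11 target genes, 10 were higher in E1 versus CN and 9 in E2 versus E0, with medians of 2.84 and 2.29. Il6 and Il1a, inflammatory cytokines, and Ccl3, a chemokine, led in E2 among targets at 10 CPM or more (5.62 ± 0.27, 4.86 ± 0.13 and 4.17 ± 0.13). In E1 the leaders were Cxcl10, a chemokine for T cells (10.93 ± 0.21), Il12b, a subunit of IL-12 (5.92 ± 0.38), and Ptgs2, a prostaglandin synthase (4.40 ± 0.33). Cxcl10 was also called higher in E2 than in E0, at means of 1.32 CPM in E2 and 0.0519 CPM in E0. The 1 target called lower in E2 versus E0 was Il12b, at 0.0363 CPM in E2, near the floor, and 0.531 CPM in E0. It had 13.3 CPM in E1 and 0.218 CPM in CN.

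**Figure D5:**
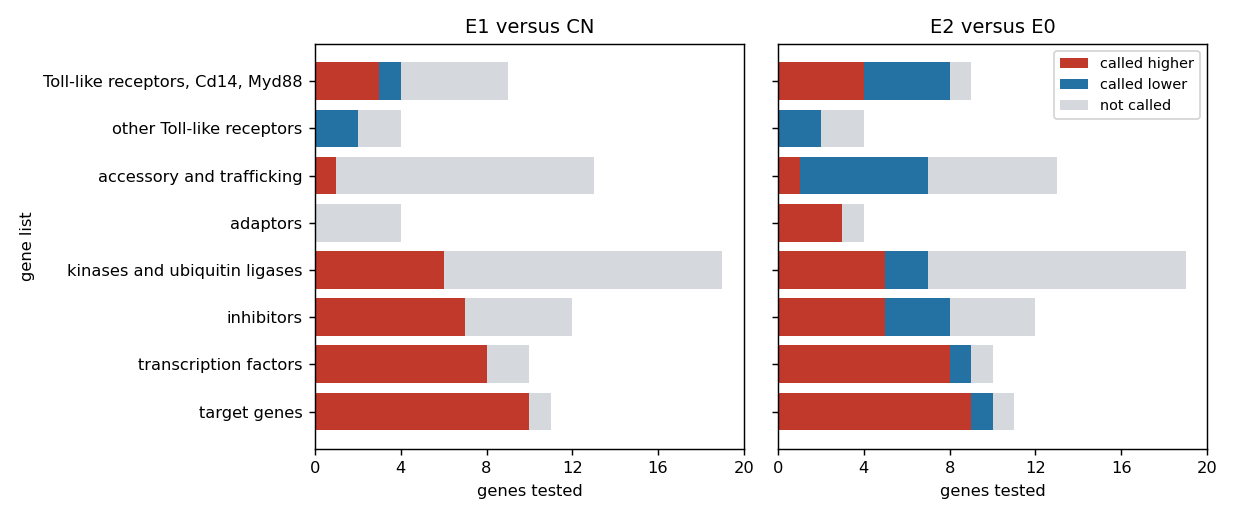
Genes of each list called higher (red), called lower (blue) or not called (grey) in E1 versus CN (left) and in E2 versus E0 (right), at an edgeR adjusted p below 0.05. In both panels 8 transcription factor genes were called higher, and 3 adaptor genes were called in E2 versus E0.

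The genes whose profiles over the 8 libraries were most like each member were named by the root mean square difference of their centred log2(CPM + 1) values, among 8856 genes. Nearest to Tlr6 were Trim12c (0.193) and Grina (0.201), to Tlr1 Trps1 (0.124) and Tspan2 (0.162), and to Tlr2 Zfp36l1 (0.115) and Nudcd2 (0.128). Cd14 was nearest to Irf8 (0.123), an interferon regulatory factor, and to Serpinb6b (0.186), and Tlr4 to Ccdc117 (0.129) and Sesn2 (0.130). Among the endosomal receptors, Tlr9 was nearest to Map3k8 (0.202) and Phlda1 (0.223), Tlr7 to Clec4a1 (0.0883) and Soat1 (0.174), and Tlr13 to Por (0.0639) and Ccdc125 (0.0671). Myd88 was nearest to the translation factor gene Eif4a1 (0.0464) and to Cdc34 (0.0542), which encodes a ubiquitin-conjugating enzyme. Genes that vary little have small differences from many others, and 11 of the 18 pairs were kept with a pseudocount of 0.1 and 8 with one of 5.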

How the data were processed

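The authors deposited raw counts, 1 row for each Ensembl gene and 1 column for each of the 8 libraries. Per the submitters' processing notes, STAR, featureCounts and the mm10 build were used, and the kit was a stranded mRNA kit per the labels' protocols. Versions, annotation, strand setting and the handling of multi-mapping reads are not given there. Of 15918 rows, 1 had no name, equalled the column totals (100% of the named counts) and was left out. Of 15917 identifiers, 15730 matched a symbol and 187 did not. Columns carry the library names, which gave the groups.

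The main test was that of edgeR 4.0.16 in R 4.3.3 (filterByExpr, TMM scaling, 1 mean per group over all 8 libraries with 4 residual degrees of freedom, two-sided quasi-likelihood F test, Benjamini-Hochberg adjustment over 15913 genes). A gene was called at an adjusted p below 0.05. SE is the log2 fold change divided by the root of F, and the common biological coefficient of variation was 0.147. CPM values, computed here from the deposited counts, are TMM-scaled, and levels per kilobase used the exon union of GENCODE M21. Alternatives were DESeq2 1.42.0, limma-voom (limma 3.58.1), other scalings and filters, a replicate block, the libraries of a contrast alone and each library left out. The test was tried on simulated counts with known changes.

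The members and lists were chosen with earlier results of these data known. Pathway genes were named by rule: up to 3 called genes each way per list at 10 CPM or more in the higher group, and the 2 nearest profiles at 5 CPM or more. Genes outside that rule that are named here (Irak2, Irak4, Traf6, Ly96, Bst2 and the macrophage, neutrophil and B cell markers), and the values of Il12b and Cxcl10 in E2 versus E0, were chosen after their values were seen. Of the listed genes, Tlr11, Lbp, Tasl, Sarm1, Il10, Cxcl1 and Ifnb1 were not matched by symbol and are not analysed here.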

Additional observations from a re-analysis of the deposited data

Results flagged for a closer look

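For 6 genes the response to GM-CSF, IL-4 and IL-33 added to IL-5 (E2 versus E0) differed from that to IFN-γ and TNF-α (E1 versus CN). This was by a test of the difference itself in edgeR. On the log2 scale the difference, second response minus first, was -2.69 for Tlr1 (adjusted p = 0.0041), -2.32 for Tlr6 (adjusted p = 0.000922) and -2.83 for Tlr7 (adjusted p = 0.0027). It was 2.92 for Tlr9 (adjusted p = 7.36e-05), -0.51 for Tlr13 (adjusted p = 0.00291) and -1.44 for Cd14 (adjusted p = 0.00756). Tlr1 and Tlr6 were called in opposite directions in the 2 comparisons, Tlr13 and Cd14 in the same direction with unequal size, and Tlr7 and Tlr9 in E2 versus E0 only. The 2 responses were measured in different experiments against different controls (CN without IL-5, E0 with it), so a difference between stimuli and one between experiments or controls cannot be told apart.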

How the results depend on the processing

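All 6 genes called for the difference of responses were called under all 15 alternatives, and Cd14, Tlr6 and Tlr13 in E1 versus CN and Cd14, Tlr6, Tlr7, Tlr9 and Tlr13 in E2 versus E0 under all 16. With the replicate block, 5521 genes were called in E1 versus CN (2749 without it), 8514 in E2 versus E0 (5655), 6821 for the difference (4018) and 7476 in E0 versus CN (4038), and 7 of the 9 members in E1 versus CN (4). Replicate differences correlated across genes at 0.499 between E1 and CN and 0.586 between E2 and E0, and the number goes with sex, but the labels give it no meaning, so the block is not the main fit. With it Tlr4 (-0.34, adjusted p = 0.00157), Tlr7 (0.67, adjusted p = 0.0442) and Myd88 (0.29, adjusted p = 0.0009) were called in E1 versus CN, Tlr4 in E2 versus E0 (0.22, adjusted p = 0.013), and Tlr2 and Tlr4 for the difference (0.72 and 0.56, adjusted p = 0.00191 and 0.00057). With library totals alone, 2 members were called in E0 versus CN (4). Leaving out a library gave 1904 to 2484 genes in E1 versus CN, 3334 to 5929 in E2 versus E0, 2715 to 3768 for the difference, 6486 to 8451 in E2 versus E1 (8575 with all) and 2235 to 4274 in E0 versus CN. The members called were then 3 to 4, 6 to 7, 6 to 7, 5 to 8 and 1 to 4.

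Signs turned only for values that were not called. Leaving out a library moved the log2 fold change of Tlr2 over -0.13 to 0.021 in E1 versus CN (above 0 without CN replicate 1 or E1 replicate 2) and -0.035 to 0.69 in E0 versus CN (below 0 without E0 replicate 2). It moved that of Tlr4 over -0.025 to 0.44 in E2 versus E0 (below 0 without E2 replicate 2) and -0.32 to 0.14 in E2 versus E1 (above 0 without E1 replicate 2 or E2 replicate 1, and 0.071 with library totals alone), and that of Tlr9 over -0.089 to 0.21 in E0 versus CN (below 0 without CN replicate 2 or E0 replicate 2). The cause was not tested. Groups of 2 libraries limit every comparison, and counts of 77 to 501 lie behind the values of Tlr7, against 5259 to 12514 for Myd88.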
